A study of Homo sapiens with 12 samples.

Results

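Potassium channel genes were described in SUDHL6 cells, a human cell line from a germinal-centre-type diffuse large B-cell lymphoma, treated with GSK591, an inhibitor of the arginine methyltransferase PRMT5. Members were the gene symbols that begin with KCN and a further letter and that reached 0.5 CPM (counts scaled to the library total) in at least 3 of the 12 libraries. Of 100 such symbols among 23368 in the count tables, 35 were members, 43 had counts but stayed below the minimum, and 22 had no count in any library. The groups were GSK591 for 96 h, vehicle for 96 h, GSK591 for 24 h and vehicle for 24 h, with 3 libraries each. GSK591 was given at 200 nM and vehicle was 0.01% DMSO, and the labels name no genetic change in the cells. Poly(A)-selected RNA was sequenced from bulk cells, so fewer cells that express a gene and less RNA per cell cannot be told apart. The members were sorted into classes by symbol.

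Potassium channels let potassium leave the cell along its gradient, which keeps the membrane potential negative. In lymphocytes this potential is the electrical drive for calcium entry after antigen receptor signalling, and the voltage-gated KCNA3 and the calcium-activated KCNN4 are the channels best known for that role. The pore is built from alpha subunits that open on depolarization (voltage-gated), on a rise in intracellular calcium (calcium-activated), or that pass current more easily inward (inward rectifiers) or as a leak (tandem-pore channels), while accessory subunits form no pore and change the gating or traffic of the pore subunits.

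Among the 35 members were 10 of 30 voltage-gated symbols, 2 of 10 modifier subunits that join voltage-gated channels, 3 of 8 calcium- or sodium-activated symbols, 6 of 16 inward rectifiers, 4 of 15 tandem-pore symbols, 9 of 17 accessory symbols and 1 of 4 noncoding symbols. All 12 libraries passed the minimum for 25 members and fewer did for 10. KCNS1 passed through its 3 GSK591 libraries of 96 h alone, and KCNK13 through 2 GSK591 and 2 vehicle libraries of 96 h. The third-highest library stood at 0.574 CPM for KCNRG, 0.578 CPM for KCNK13 and 0.653 CPM for KCNJ4, the members nearest the minimum. Just outside it, KCNE1L, KCNJ10 and KCNC1 stood at 0.377, 0.356 and 0.33 CPM.

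The 250 bases upstream of the annotated start are shown for KCND1, KCNH2 and KCNJ1, which rose at least 2-fold under 96 h of GSK591, and for KCNC4, which fell at both times. They are RefSeq sequences of build GRCh38.p14, written 5′ to 3′ on the strand of the gene, and capitals mark a motif searched on both strands.
KCND1 (chrX:48971845-48972094, minus strand): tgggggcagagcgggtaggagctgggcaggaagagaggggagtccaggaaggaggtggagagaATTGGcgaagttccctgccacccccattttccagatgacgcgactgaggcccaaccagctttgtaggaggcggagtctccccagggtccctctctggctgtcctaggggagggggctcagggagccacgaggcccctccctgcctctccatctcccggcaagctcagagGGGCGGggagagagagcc
KCNH2 (chr7:150978322-150978571, minus strand): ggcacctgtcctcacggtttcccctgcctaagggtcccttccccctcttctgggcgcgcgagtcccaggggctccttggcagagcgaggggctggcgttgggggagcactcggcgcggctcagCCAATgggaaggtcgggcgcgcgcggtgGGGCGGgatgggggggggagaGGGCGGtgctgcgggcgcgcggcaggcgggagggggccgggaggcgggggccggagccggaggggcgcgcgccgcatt
KCNJ1 (chr11:128867297-128867546, minus strand): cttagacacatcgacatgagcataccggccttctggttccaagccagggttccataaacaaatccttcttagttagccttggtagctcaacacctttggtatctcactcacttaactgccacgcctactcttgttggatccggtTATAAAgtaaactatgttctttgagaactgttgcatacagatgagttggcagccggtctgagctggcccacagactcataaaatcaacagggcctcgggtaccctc
KCNC4 (chr1:110210064-110210313, plus strand): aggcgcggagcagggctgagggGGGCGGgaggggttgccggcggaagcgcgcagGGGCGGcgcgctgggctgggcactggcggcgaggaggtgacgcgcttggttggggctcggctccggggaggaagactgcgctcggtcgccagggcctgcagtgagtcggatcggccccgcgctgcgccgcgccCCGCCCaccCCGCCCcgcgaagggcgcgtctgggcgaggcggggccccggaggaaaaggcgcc
The capitals are the letters of the GC box (GGGCGG), the CCAAT element or the TATA box (TATAAA), on either strand. KCNC4 held 4 GC boxes, at 228, 196, 63 and 54 bases before the start, and KCNH2 held 2, at 99 and 78 bases. KCND1 held 1, at 18 bases, and KCNJ1 held none but the letters TATAAA at 106 bases. KCNS1, KCNK12 and KCNMB4, which also rose at 96 h, were not among the 26 of 35 members matched in the RefSeq promoter table.

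Over those 26 promoters, 14 held a GC box, against 42.3% of 27303 RefSeq promoters of the same length. Of the 8 matched members that rose at 96 h, 7 held one, as did 1 of the 2 that fell. The share of G and C in these 7 promoters was 57.2% to 79.2%, beside a median of 58.0% over all promoters. Its part in the GC box matches was not tested. CCAAT was found in 11 of 26 (33.0% of all promoters), TATAAA in 2 (11.1%), the E2F letters TTTNNCGC in 4 (5.9%) and the E-box CACGTG in 2 (6.5%). The paired half-site TTCNNNGAA, part of the motif read by STAT and BCL6 proteins, was in none of the 26 (6.8% of all promoters). Such matches describe letters and are neither sites nor causes.

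Depth was 48.5 to 64.4 M counts per library (M, mega), except vehicle replicate 1 of 96 h, which held 547.9 M, or 10.2 times the median of the others. All 7 B-cell and 4 germinal centre marker genes averaged at least 1 CPM in every group. The summed T-cell, myeloid, fibroblast or epithelial markers reached at most 1.39 CPM in a library, and of the neuron and muscle markers only TTN averaged over 1 CPM. At 96 h the libraries numbered 2 in both groups stood apart from the others. The chi-square per degree of freedom between replicates was 16.65 to 39.79 for pairs that include them, against 2.2 to 9.12 for the other pairs. The members called at 96 h, those that gained a call, and KCNA3 are therefore also given without both. That fit leaves 2 libraries in each group. The libraries left out were picked by their spread in these same data, so lower p-values without them are no independent support.

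In vehicle cells 3 genes stood above the rest per kilobase of exon (CPM per kb, mean and range of the 6 vehicle libraries of both times). KCNN4, the intermediate-conductance calcium-activated channel, had a level of 18.4 CPM per kb (14.9 to 21.8). KCNMB2, a beta subunit of the large-conductance calcium-activated channel, had 14.8 (10.6 to 19.3), and KCNAB2, a cytoplasmic beta subunit of KCNA channels, had 14.7 (13.7 to 15.7). The ranges of these 3 overlap, and each lies above that of KCNQ5, a subunit of the slow M-type channel, with 7.81 CPM per kb (7.56 to 8.02). The overlap of KCNMB2 and KCNAB2 comes from pooling the times. Per kilobase, KCNMB2 lay below KCNAB2 in all vehicle libraries of 24 h and above it in all of 96 h.

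KCNH8, an ELK-type channel, followed with 4.68 CPM per kb, then KCNJ11, the pore of the ATP-sensitive channel, with 3.70. The ranges of both overlap and lie below that of KCNQ5. This order also pools the times, and in the vehicle libraries of 24 h alone KCNJ11 lay above KCNH8 per kilobase. KCNIP2, a calcium-binding subunit of KCND channels, had 2.13, and its range lies below that of KCNJ11 and overlaps that of KCNH8 (2.61 to 7.53). From KCNIP2 down to the noncoding KCNQ1OT1, with 0.056 CPM per kb, each gene overlaps the next. Of the 35 members, 3 had a level of at least 10 CPM per kb, 9 had 1 to 10 and 23 less than 1.

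**Figure D1:**
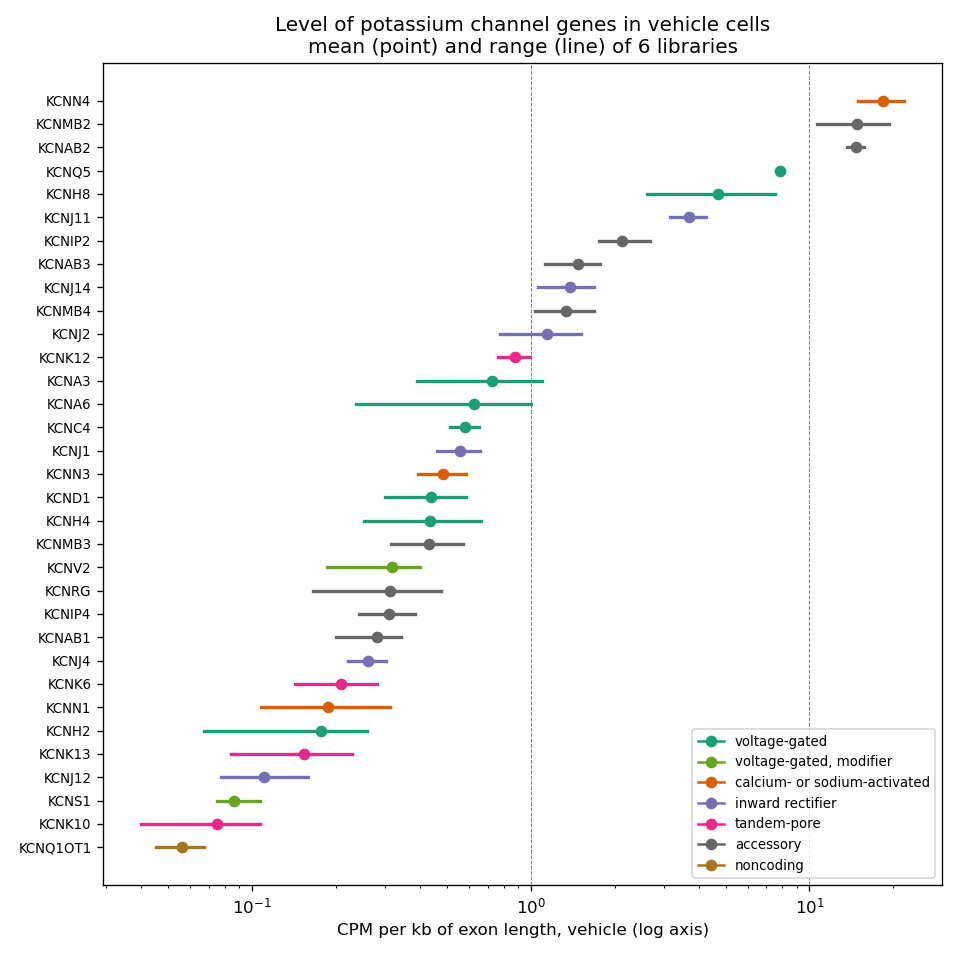
Level of 33 members in vehicle cells in CPM per kb of exon (log axis), with the mean (point) and the range (line) of 6 libraries, coloured by class; dashed lines mark 1 and 10 CPM per kb. KCNN4, KCNMB2 and KCNAB2 lie above 10, and KCNQ5 has a narrow range from 7.56 to 8.02.

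KCNA3 stood far down this order, with 0.727 CPM per kb (0.39 to 1.1). Several subunits were counted without a usual partner. KCNMA1, the pore to which KCNMB beta subunits bind, reached at most 0.02 CPM in any library, against 46.5 CPM for KCNMB2 on average in vehicle cells. ABCC8, the sulfonylurea receptor that joins KCNJ11, reached at most 0.06 CPM, and its relative ABCC9 was at 0. Of the KCND pore genes only KCND1 was a member, with KCND2 at 0 and KCND3 at no more than 0.037 CPM.

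Some levels rest on shared sequence, and none of the sources used here gives the annotation, the strand setting or the handling of shared bases in the counts. All exon bases of KCNA6 lie within exons of GALNT8 on the same strand, and GALNT8 itself was counted at no more than 0.249 CPM in any library. KCNRG shares 50.3% of its bases with TRIM13, KCNMB3 41.0% with PIK3CA on the opposite strand, and KCNMB2 36.2% with the transcript AC117457.1. KCNJ4 shares 12.6%, KCNJ14 11.7% and KCNAB3 and KCNIP2 10.3% each with neighbours, and other members less. KCNQ1OT1 runs antisense to KCNQ1, and KCNJ12 has a near-identical copy in KCNJ18. The values of these members are uncertain to that extent.

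After 96 h of GSK591, 11 of the 35 members rose and 2 fell, in edgeR's quasi-likelihood test at an adjusted p under 0.05. Of the 13514 genes tested, 20.7% rose and 19.6% fell, so that 40.2% were called in all. The members' median log2 fold change was 0.22, beside 0.00 for all genes tested. Those that rose came from every pore class, and they include KCNS1 (3.97-fold), KCNJ1 (2.23-fold), KCND1 (2.16-fold) and KCNH2 (2.08-fold). These 4 were the members called with a change of 2-fold or more, which 3.61% of all genes showed. KCNS1 became a member through its GSK591 libraries of 96 h alone. Its part in these counts and in the median is therefore not independent of the membership rule. The 2 that fell, KCNC4 and KCNA6, are voltage-gated. The labels do not say whether a group's libraries are separate cultures. All p-values therefore measure the spread between these libraries, which may be technical.

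Of the 10 voltage-gated members, 4 rose. KCND1 forms rapidly inactivating A-type channels. It had 6.25, 8.09 and 6.42 CPM in GSK591 cells at 96 h, against 3.35, 3.03 and 3.20 CPM in vehicle cells. The groups lie well apart (log2 fold change 1.11 ± 0.12 SE, adjusted p = 0.000682 in edgeR's test). Without both libraries numbered 2 the log2 fold change was 0.95.

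KCNH2 encodes the hERG channel, known for repolarization of the heart. At 96 h its level was 2.52, 2.22 and 2.84 CPM in GSK591 cells and 1.31, 0.966 and 1.30 CPM in vehicle cells. The lowest treated library lies above the highest vehicle library (log2 fold change 1.06 ± 0.17 SE, adjusted p = 0.00244). These values stand on 127 to 155 counts in GSK591 libraries and on 50, 63 and 720 counts in vehicle libraries.

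KCNH8 had 51.5, 43.6 and 48.7 CPM in GSK591 cells, against 38.7, 26.6 and 38.2 CPM in vehicle cells at 96 h. Within each group the library numbered 2 is the lowest, and the groups do not overlap (0.47 ± 0.13, adjusted p = 0.0192). The call was lost without GSK591 replicate 1 (adjusted p = 0.0675) or GSK591 replicate 3 (adjusted p = 0.0644). KCNQ5 had 60.4, 60.9 and 58.0 CPM in GSK591 cells, against 54.9, 52.7 and 53.1 CPM in vehicle cells. This is a small step between tight groups (0.15 ± 0.05, adjusted p = 0.0318), and leaving out GSK591 replicate 1 or 3 or any vehicle library ended the call (adjusted p up to 0.141).

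Both voltage-gated members that fell had their least reduced treated library in GSK591 replicate 2. KCNC4, a subunit of fast-inactivating Shaw-related channels, had 3.67, 7.38 and 4.61 CPM in GSK591 cells at 96 h, against 9.59, 10.2 and 9.98 CPM in vehicle cells. All 3 treated libraries lie below vehicle (log2 fold change -0.92 ± 0.21 SE, adjusted p = 0.00953). Without both libraries numbered 2 the log2 fold change was -1.21 ± 0.10 (adjusted p = 3.55e-07).

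KCNA6, a delayed rectifier of the KCNA family, had 1.79, 3.62 and 2.31 CPM in GSK591 cells at 96 h, against 3.91, 3.94 and 4.25 CPM in vehicle cells. GSK591 replicate 2 comes close to vehicle without overlapping it (-0.63 ± 0.22, adjusted p = 0.0444). The call was lost without GSK591 replicate 1 or 3 or any vehicle library (adjusted p 0.0795 to 0.134) and with library size alone (adjusted p = 0.0549), while without both libraries numbered 2 the change was -0.94 ± 0.13. With the counts of the deep vehicle replicate 1 thinned at random to the median depth of the others, the call depended on the random draw.

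KCNA3 had 1.99, 3.29 and 2.06 CPM in GSK591 cells, against 2.46, 2.82 and 2.39 CPM in vehicle cells at 96 h. Here the treated libraries straddle vehicle (-0.05 ± 0.20, adjusted p = 0.848; -0.26 ± 0.12, adjusted p = 0.0805, without both libraries numbered 2). KCNH4 had a log2 fold change of 0.51, which did not pass the threshold.

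KCNS1 is a modifier that forms no channel alone and joins other voltage-gated subunits. It had 1.37, 1.71 and 1.36 CPM in GSK591 cells at 96 h, against 0.354, 0.367 and 0.433 CPM in vehicle cells. No treated library comes near vehicle (1.99 ± 0.19, adjusted p = 0.000406), and without both libraries numbered 2 the value was 1.92. The level stayed low, with 69, 110 and 74 counts in GSK591 libraries. Since KCNS1 became a member through these libraries, its rise is not independent of the membership rule. The other modifier, KCNV2, was not called (0.60 ± 0.24, adjusted p = 0.0756).

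Of the 3 calcium-activated members, which couple calcium to the membrane potential, 2 rose. KCNN4 had 61.2, 64.2 and 60.4 CPM in GSK591 cells at 96 h, against 48.0, 42.9 and 49.0 CPM in vehicle cells. The groups are apart (0.41 ± 0.06, adjusted p = 0.00166), so the channel gene with the highest level per kilobase in vehicle was 1.33-fold higher. KCNN3, a small-conductance channel, had 11.2, 12.5 and 11.6 CPM in GSK591 cells, against 7.54, 6.95 and 7.98 CPM in vehicle cells. Its groups are apart too (0.65 ± 0.09, adjusted p = 0.00135). KCNN1, another small-conductance channel, was not called (0.41 ± 0.21, adjusted p = 0.155), although its GSK591 libraries lay above vehicle.

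Of the 6 inward rectifiers, 2 rose. KCNJ1, the ROMK channel known for potassium secretion in the kidney, had 7.07, 4.30 and 6.46 CPM in GSK591 cells at 96 h, against 3.03, 2.12 and 2.68 CPM in vehicle cells. Replicate 2 is the lowest of each group, and the groups do not overlap (1.15 ± 0.20, adjusted p = 0.00337; 1.21 without both libraries numbered 2). KCNJ14 had 8.66, 9.83 and 8.11 CPM in GSK591 cells, against 5.30, 4.60 and 5.51 CPM in vehicle cells, again with no overlap (0.78 ± 0.11, adjusted p = 0.00147).

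The other inward rectifiers were not called. KCNJ11 had 7.80, 11.03 and 9.40 CPM in GSK591 cells at 96 h, against 11.3, 12.6 and 11.9 CPM in vehicle cells. Its treated libraries all lie below vehicle, and it fell short of the threshold (-0.34 ± 0.12, adjusted p = 0.0527). It passed without both libraries numbered 2 (-0.40, adjusted p = 0.00109). KCNJ2, the classical inward rectifier of heart and muscle, had a log2 fold change of -0.32 ± 0.12 (adjusted p = 0.0642) and also passed without both (-0.34 ± 0.10, adjusted p = 0.0126). KCNJ12 had 0.43 and KCNJ4 0.20, the second with a turned sign (-0.04) without both.

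Of the 4 tandem-pore members, 1 rose. KCNK12 had 7.13, 8.69 and 7.97 CPM in GSK591 cells at 96 h, against 4.76, 5.52 and 5.01 CPM in vehicle cells. All treated libraries exceed all vehicle libraries (0.64 ± 0.11, adjusted p = 0.00342). KCNK10, a mechanically gated leak channel, had the most negative value of the class without passing the test (-0.61 ± 0.24, adjusted p = 0.0745). KCNK6 (0.17) and KCNK13 (0.40) were not called either.

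Of the 9 accessory members, 1 rose. KCNMB4, the beta subunit typical of neuronal large-conductance channels, had 12.7, 9.54 and 11.9 CPM in GSK591 cells at 96 h, against 7.33, 6.84 and 7.94 CPM in vehicle cells. The groups do not overlap (0.63 ± 0.12, adjusted p = 0.00496). The 2 accessory genes with the highest levels moved less. KCNMB2 had 67.5, 59.2 and 69.2 CPM in GSK591 cells, against 58.6, 55.9 and 60.5 CPM in vehicle cells, with overlapping groups (0.16 ± 0.07, adjusted p = 0.0973). It was called higher without both libraries numbered 2 (0.22 ± 0.04, adjusted p = 0.000465).

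KCNAB2 had 92.8, 104 and 97.4 CPM in GSK591 cells, against 97.7, 94.6 and 98.4 CPM in vehicle cells. The groups overlap, and the sign of the difference turned without both libraries numbered 2 (0.01 ± 0.05, adjusted p = 0.861; -0.03 without them). KCNAB3, a further KCNA beta subunit, had 2.10, 4.47 and 1.85 CPM in GSK591 cells, against 4.34, 3.90 and 4.17 CPM in vehicle cells. GSK591 replicate 2 alone lies at the level of vehicle. The gene was not called with it (-0.55 ± 0.28, adjusted p = 0.144) and was called without both libraries numbered 2 (-1.11 ± 0.12, adjusted p = 2.93e-06).

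The noncoding KCNQ1OT1, known from its imprinted locus, showed the same split. It had 3.57, 6.31 and 3.19 CPM in GSK591 cells at 96 h, against 6.14, 4.94 and 6.09 CPM in vehicle cells. It was not called with all libraries (-0.39 ± 0.23, adjusted p = 0.193) and was called without both libraries numbered 2 (-0.84 ± 0.10, adjusted p = 6.51e-06). Over the members, leaving out both libraries gave 20 called at 96 h, with 13 higher and 7 lower. Calls over all 13566 genes tested in that fit rose as well, to 60.5% in all (30.2% higher and 30.2% lower).

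All 13 members called with every library were among these 20. Without both libraries numbered 2, the log2 fold changes of those not yet given were 1.05 for KCNH2, 0.39 for KCNH8, 0.14 for KCNQ5, 0.59 for KCNN3, 0.34 for KCNN4, 0.66 for KCNJ14, 0.66 for KCNK12 and 0.73 for KCNMB4. The 7 further calls were KCNMB2 and KCNH4 (0.43, adjusted p = 0.0491) as higher, and KCNJ11, KCNJ2, KCNAB3, KCNQ1OT1 and KCNIP2 (-0.22, adjusted p = 0.0471) as lower. KCNIP2 stood at -0.01 with every library.

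**Figure D2:**
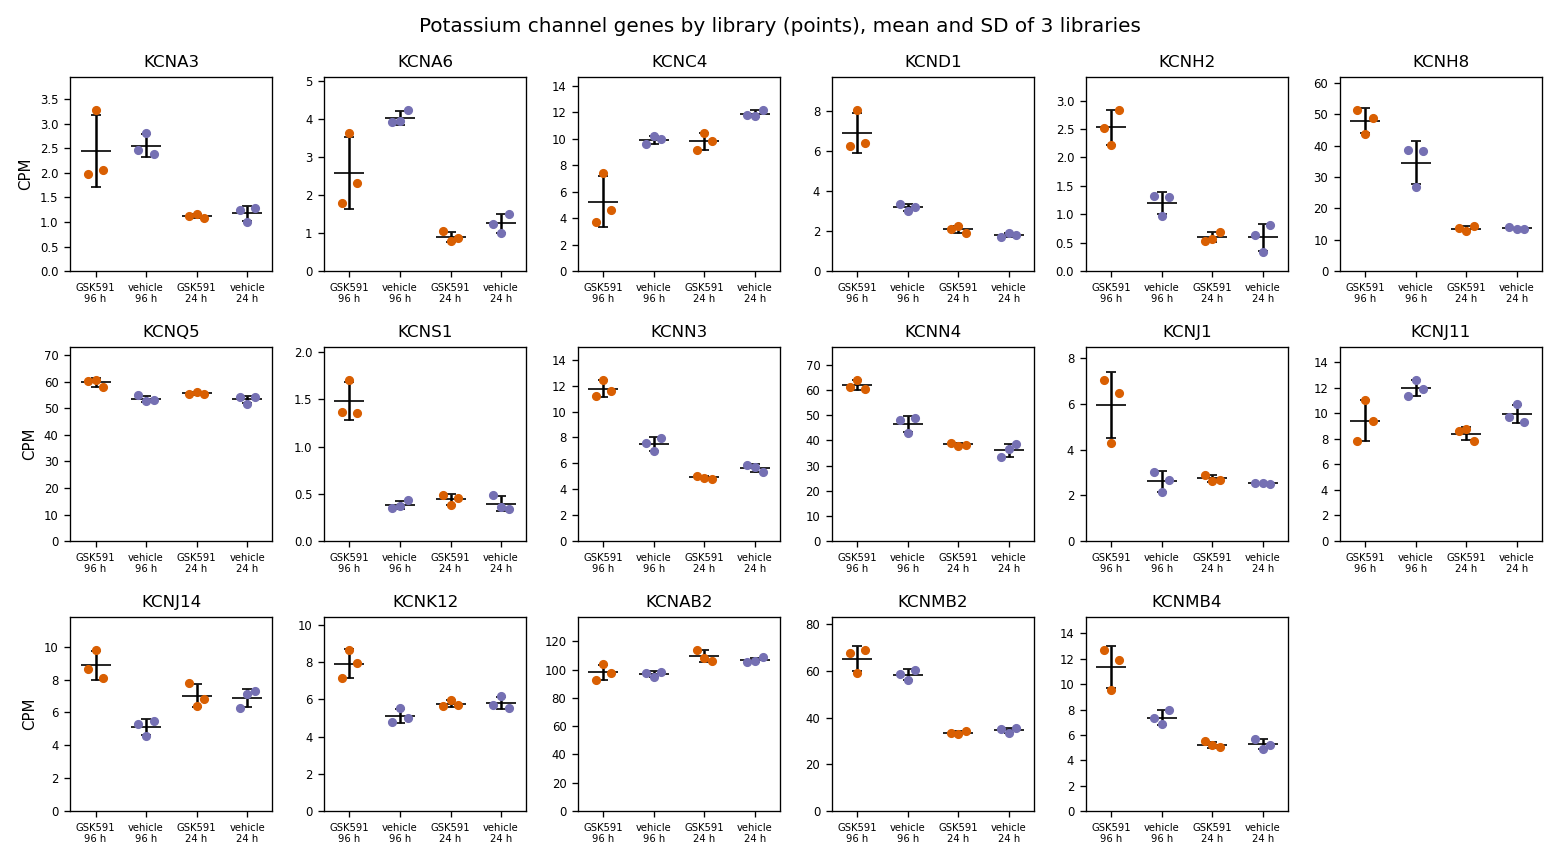
CPM of 17 members in each library (points) with mean and SD of 3 libraries (bars), GSK591 in orange and vehicle in purple, at 96 h and at 24 h; each panel has its own axis that starts at 0. KCNS1, KCND1, KCNJ1 and KCNH2 are raised in the 3 GSK591 libraries of 96 h, and KCNC4 is lowered in them.

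Groups that did not overlap were found for 18 of the 35 members at 96 h, beside 55.2% of all genes tested. Of these, 13 were higher and 5 lower, beside 27.2% and 28.0%. In the authors' deposited table for 96 h, 12 members were higher and 3 lower at an FDR under 0.05, and 12 of these 15 were called here. The others were KCNH4, KCNJ11 and KCNV2, and KCNQ5 was called here but not in the authors' deposited table (FDR 0.128 there).

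After 24 h of GSK591, no member rose and 2 fell in edgeR's quasi-likelihood test. Of the 13173 genes tested, 14.7% were called, 7.44% higher and 7.29% lower. At an unadjusted p under 0.05 there were 7 members, 3 higher and 4 lower, against 29.0% of all genes. DESeq2 called none higher and 1 lower. With the replicate number as a block in edgeR's test, 2 were called higher and 3 lower, beside 21.3% of all genes called. The 2 higher were KCNN4 (adjusted p = 0.0399) and KCNQ5 (adjusted p = 0.0482). Groups did not overlap for 7 members (31.7% of all genes), 3 higher and 4 lower (10.7% and 20.9%). The members' median log2 fold change was -0.01, beside 0.00 for all genes tested.

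KCNC4 had 9.12, 10.4 and 9.80 CPM in GSK591 cells at 24 h, against 11.8, 11.7 and 12.2 CPM in vehicle cells. Its groups were already apart at this time (-0.26 ± 0.06, adjusted p = 0.00554). KCNJ11 had 8.60, 8.75 and 7.83 CPM in GSK591 cells, against 9.68, 10.7 and 9.35 CPM in vehicle cells. The groups are apart by less (-0.22 ± 0.07, adjusted p = 0.0345), and the call was lost without GSK591 replicate 1 or 3 or vehicle replicate 1 or 2 (adjusted p 0.0642 to 0.19). In 1 fit of all 12 libraries, where the wider spread of 96 h enters, neither gene was called at 24 h. The authors' deposited table for 24 h holds the same 2 genes as its only members at an FDR under 0.05, both lower.

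None of the members that rose at 96 h was called at 24 h in the fit without a block. KCNS1 had 0.485, 0.380 and 0.459 CPM in GSK591 cells at 24 h, against 0.485, 0.360 and 0.342 CPM in vehicle cells. KCND1 had 2.11, 2.26 and 1.89 CPM in GSK591 cells, against 1.72, 1.90 and 1.82 CPM in vehicle cells. The groups overlap in both genes. KCNH2 had 0.522, 0.570 and 0.689 CPM in GSK591 cells, against 0.634, 0.341 and 0.810 CPM in vehicle cells. KCNJ1 had 2.91, 2.64 and 2.68 CPM in GSK591 cells, against 2.54, 2.54 and 2.49 CPM in vehicle cells, a narrow separation that was not called (0.14 ± 0.10, adjusted p = 0.396). KCNN3 lay lower under GSK591 at 24 h, with 5.02, 4.90 and 4.82 CPM in GSK591 cells, against 5.91, 5.69 and 5.35 CPM in vehicle cells, also without a call (-0.18 ± 0.08, adjusted p = 0.118).

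At 24 h KCNN4 had 39.0, 37.9 and 38.2 CPM in GSK591 cells, against 33.4, 36.6 and 38.5 CPM in vehicle cells. The overlap rests on vehicle replicate 3, and without it the gene was called higher (0.10 ± 0.04, adjusted p = 0.102; 0.15, adjusted p = 0.0292 without it). The remaining values for KCNA3, KCNA6, KCNJ14, KCNK12, KCNMB2, KCNMB4, KCNH8, KCNQ5 and KCNAB2 are in the plot of CPM by library, and their log2 fold changes at 24 h lay between -0.47 (KCNA6, adjusted p = 0.0785) and 0.08 (KCNQ5, adjusted p = 0.0843).

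**Figure D3:**
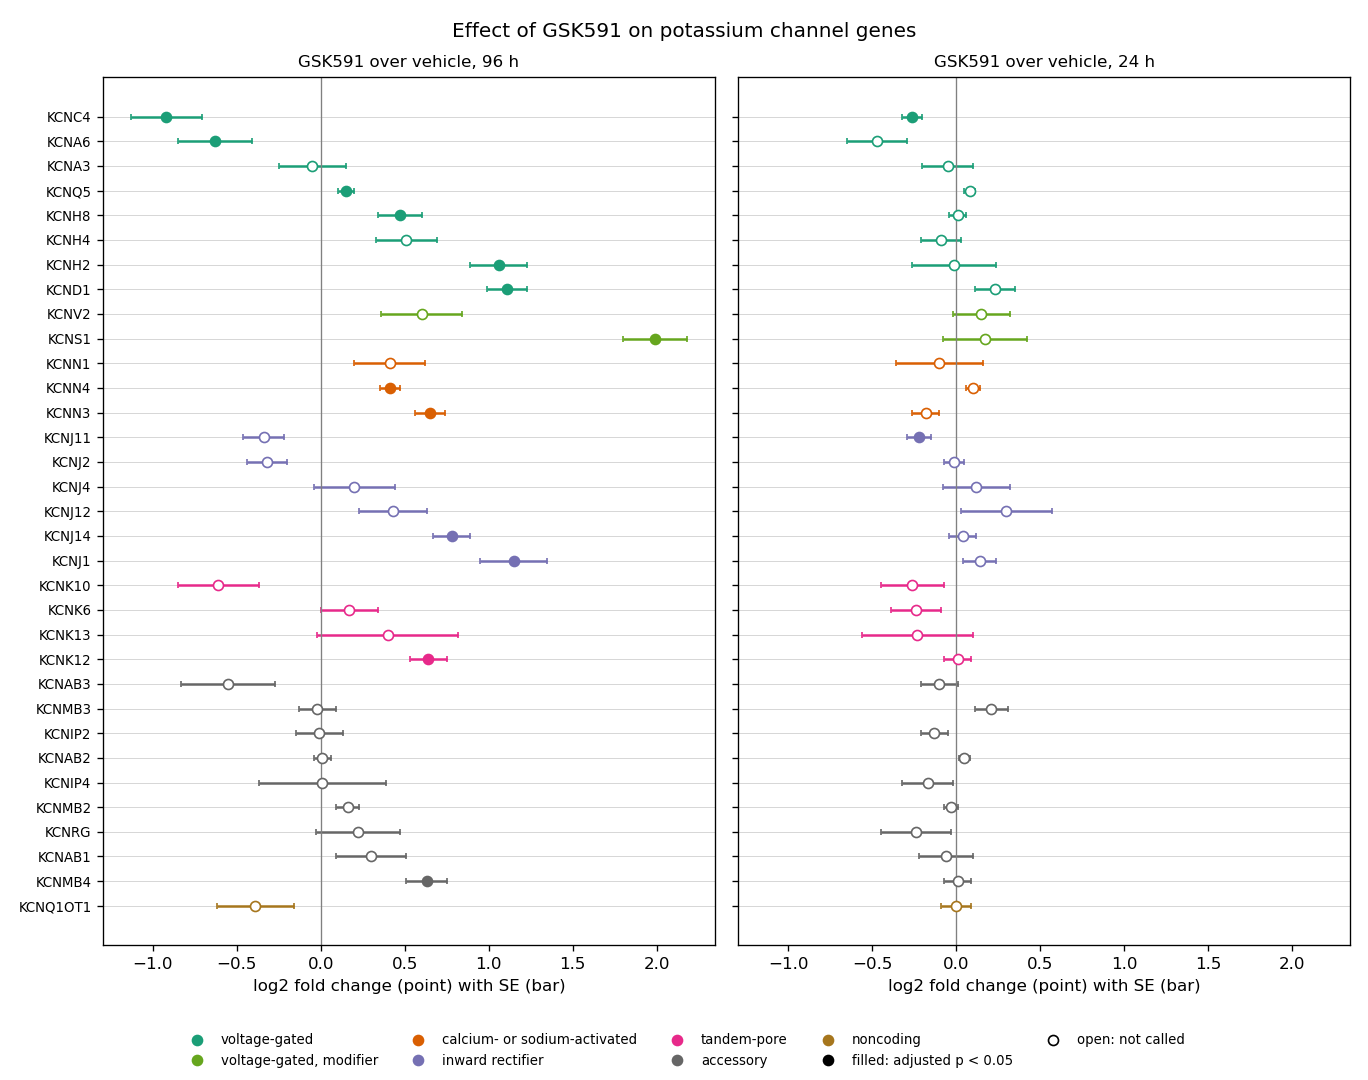
Log2 fold change of GSK591 over vehicle (points) with SE (bars) for 33 members at 96 h (left) and 24 h (right), coloured by class, filled where the adjusted p was under 0.05. At 96 h 13 points are filled, reaching 1.99 for KCNS1 and -0.92 for KCNC4, and at 24 h the 2 filled points are KCNC4 and KCNJ11.

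Whether the effect of GSK591 differed between the times was tested directly, in 1 fit of all 12 libraries (log2 fold change at 96 h less that at 24 h). It differed for 10 members, 9 with a higher value at 96 h and 1 with a lower one. Of the 13665 genes tested, 24.1% were called, 11% higher and 13.2% lower. KCNS1 had the largest difference (1.81 ± 0.28, adjusted p = 0.00113), followed by KCNH2 (1.03 ± 0.33), KCNJ1 (0.99 ± 0.25) and KCND1 (0.87 ± 0.16). The value for KCNS1, and its place among the 10, are not independent of the membership rule. For KCNN3 the difference was 0.82 ± 0.10, with an effect of 0.65 at 96 h and -0.18 at 24 h. KCNJ14, KCNK12, KCNMB4 and KCNN4 also rose more at 96 h, by 0.72, 0.63, 0.60 and 0.29. KCNC4 fell more at 96 h (-0.66 ± 0.22, adjusted p = 0.0447). For KCNH8 the difference was 0.44 ± 0.16 and was not called (adjusted p = 0.0567).

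The calls for KCNH2 and KCNC4 are the least settled of these. That for KCNH2 was lost in 8 of the fits that leave out 1 library (adjusted p up to 0.155), and that for KCNC4 in 11 of them (adjusted p up to 0.103). Without both libraries numbered 2 KCNC4 stood at -0.96 ± 0.11. The call for KCNN4 was lost without vehicle replicate 3 of 24 h (adjusted p = 0.0501).

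The vehicle cells themselves differed between the times. Of the 35 members, 13 were higher and 8 lower in vehicle at 96 h than in vehicle at 24 h, beside 24.2% higher and 23.5% lower of the 13665 genes tested, 47.7% in all. The groups did not overlap for 27 members, 16 higher and 11 lower, beside 61.5% of all genes (37.2% and 24.2%). The times were deposited as separate tables, so time in culture and table cannot be told apart. KCNA6 rose most. It had 3.91, 3.94 and 4.25 CPM in vehicle cells at 96 h, against 1.25, 1.001 and 1.51 CPM in vehicle cells at 24 h (1.61 ± 0.21, adjusted p = 2.91e-05). KCNH8 had 38.7, 26.6 and 38.2 CPM in vehicle cells at 96 h, against 13.9, 13.4 and 13.4 CPM in vehicle cells at 24 h (1.30 ± 0.11). Neither gene overlaps between the times, and both lie in the voltage-gated class.

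KCNA3 had 2.46, 2.82 and 2.39 CPM in vehicle cells at 96 h, against 1.25, 1.001 and 1.28 CPM in vehicle cells at 24 h, so the lymphocyte channel was 2.07-fold higher at the later time (1.05 ± 0.18, adjusted p = 0.000299). All 3 calcium-activated members were higher at 96 h, KCNN1 by 0.91, KCNN3 by 0.35 and KCNN4 by 0.31 on the log2 scale. So were KCNH2 (0.96), KCND1 (0.77), KCNMB2 (0.70), KCNMB3 (0.64), KCNIP2 (0.43) and KCNMB4 (0.43). KCNN1 would not be a member by its libraries of 24 h alone. Its value here and its part in the counts are therefore not independent of the membership rule. PIK3CA, which overlaps KCNMB3 on the other strand, averaged 28.5 ± 0.847 CPM in vehicle cells at 96 h and 24.6 ± 1.24 CPM in vehicle cells at 24 h (SD, n = 3 each), and its part in the KCNMB3 counts was not tested.

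Lower at the later time were KCNH4 (-1.08), KCNJ2 (-0.88), KCNK10 (-0.81), KCNRG (-0.67), KCNK6 (-0.51), KCNJ14 (-0.48), KCNK12 (-0.26) and KCNAB2 (-0.20). KCNJ2 had 4.56, 4.89 and 4.33 CPM in vehicle cells at 96 h, against 8.13, 7.87 and 8.43 CPM in vehicle cells at 24 h, with no overlap. These 8 include 3 of the 4 tandem-pore members and 2 of the 6 inward rectifiers, and no member of either class was called higher. KCNK10 and KCNRG would not be members by their libraries of 96 h alone. Their values here and their part in these counts are therefore not independent of the membership rule. The same holds for KCNJ4, which was lower without overlap but not called. The call for KCNK12 was lost with library size alone (adjusted p = 0.0786) and in 4 fits without 1 library (adjusted p up to 0.176). That for KCNK6 was lost without vehicle replicate 2 of 24 h (adjusted p = 0.0755), and that for KCNRG without vehicle replicate 3 of 24 h (adjusted p = 0.117). KCNJ14 and KCNK12, lower in vehicle at 96 h, were called higher under GSK591 at that time.

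**Figure D4:**
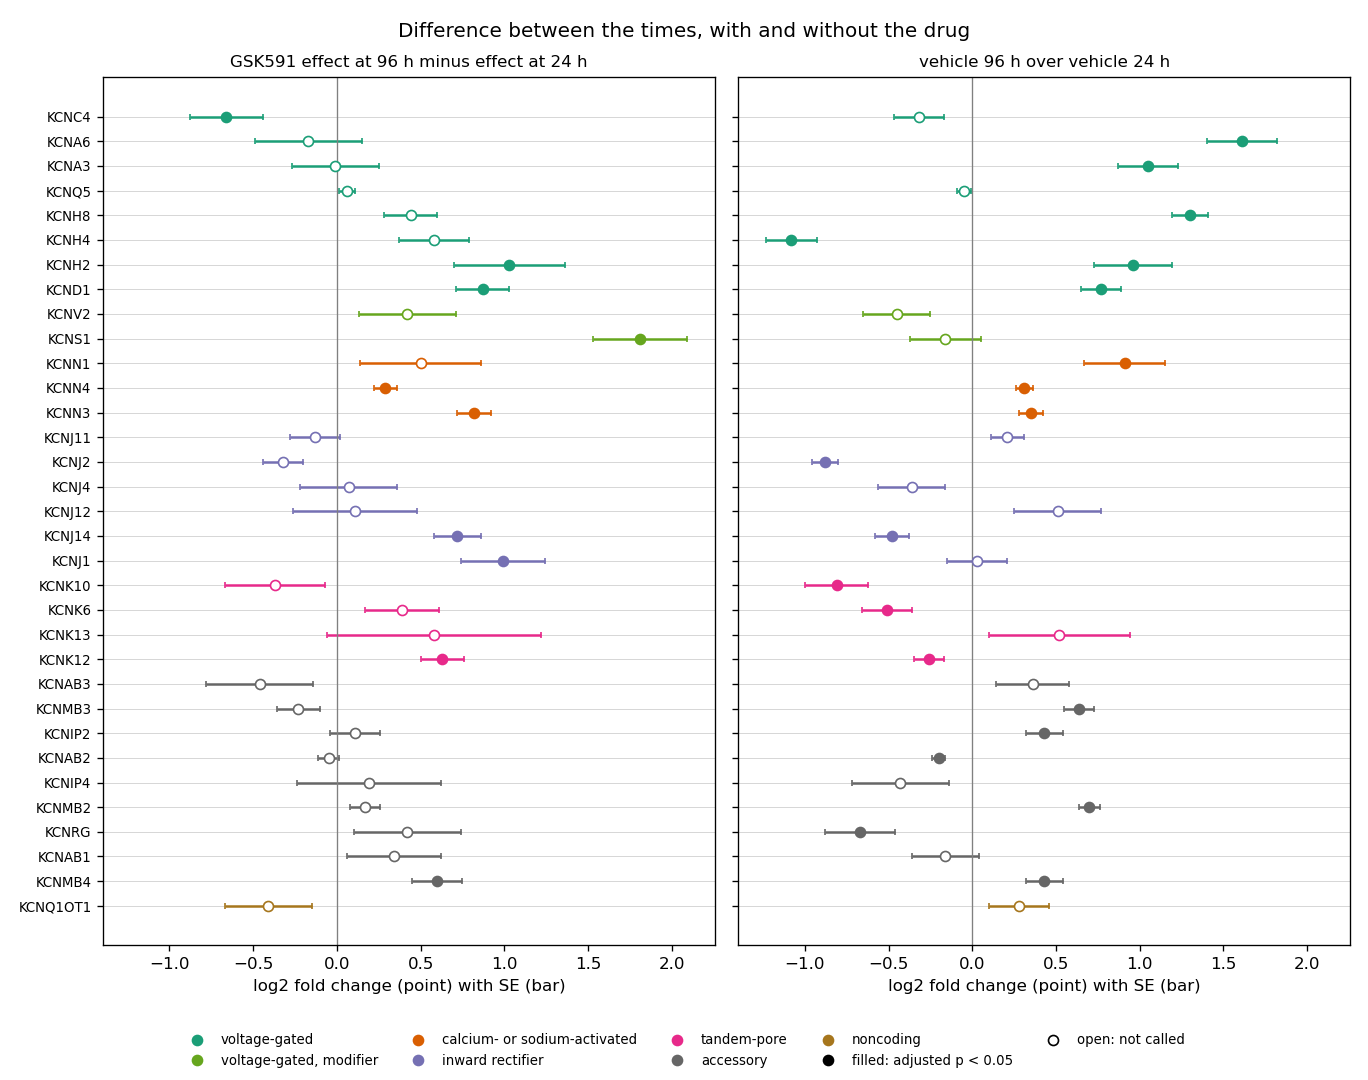
Log2 values (points) with SE (bars) for 33 members: the GSK591 effect at 96 h minus that at 24 h (left) and vehicle at 96 h over vehicle at 24 h (right), filled where the adjusted p was under 0.05. KCNS1 stands at 1.81 on the left and at -0.16, unfilled, on the right, while KCNA6 stands at 1.61 on the right.

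Summed over each class, the level at 96 h of the calcium-activated members was 28.8 ± 0.93 CPM per kb in GSK591 cells and 21.6 ± 1.57 in vehicle cells (SD, n = 3 each). The 10 voltage-gated members summed to 26.0 ± 0.90 CPM per kb in GSK591 cells and 21.8 ± 2.14 in vehicle cells. The accessory members summed to 42.4 ± 0.18 CPM per kb in GSK591 cells and 39.6 ± 1.59 in vehicle cells. These sums follow the genes with the highest levels, KCNN4, KCNQ5, KCNH8, KCNMB2 and KCNAB2, and give little weight to KCNS1 or KCNH2.

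Other genes of potassium and calcium handling were taken from 5 lists of 53 genes, of which 38 were tested at 96 h, and 9 rose (23.7%) and 7 fell (18.4%) there. These shares lie near the 20.7% and 19.6% of all genes tested, so the counts show nothing particular to the lists. Without both libraries numbered 2, 15 rose and 12 fell, beside 30.2% and 30.2% of all genes, and of the 16 calls HCN3 was lost. ATP1B1, a beta subunit of the sodium-potassium pump that builds the potassium gradient, fell at a low level of 0.25 CPM in GSK591 cells and 0.573 CPM in vehicle cells (-1.09 ± 0.33, adjusted p = 0.0293). Among cotransporters that carry potassium with chloride, SLC12A5 rose (log2 fold change 1.0 ± 0.17; 3.17 CPM in GSK591 cells and 1.56 CPM in vehicle cells), and SLC12A2 rose by 0.22.

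In the calcium list, 3 of 12 tested genes rose and 3 fell. ITPR2, a calcium release channel of the endoplasmic reticulum, averaged 150 ± 9.14 CPM in GSK591 cells and 105 ± 3.34 CPM in vehicle cells (0.52 ± 0.06, adjusted p = 0.000571). STIM2 and STIM1, the sensors of stored calcium, rose by 0.30 and 0.25. The calmodulin genes CALM3 and CALM2, whose protein is the calcium sensor bound to KCNN channels, had log2 fold changes of -0.38 and -0.29 and were called lower. PIK3C2B, a lipid kinase that activates KCNN4 in T cells, was the only called gene of the 5 KCNN4 regulators (0.54 ± 0.07, adjusted p = 0.00149).

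Among potassium-permeable channels outside the KCN symbols, TMEM38A (0.36) and HCN3 (0.26) rose and TMEM38B (-0.32) fell. Of the volume-regulated anion and proton channels, LRRC8C fell (-0.84 ± 0.11, adjusted p = 0.00128). The calls for ATP1B1, SLC12A2, HCN3 and STIM1 were each lost in at least 1 fit without a library. At 24 h, 3 of 37 genes tested were called, beside 14.7% of all genes. SLC12A2 (0.11) and STIM2 (0.10) rose and CALM3 fell (-0.08). These 3 calls were each lost without GSK591 replicate 1 or 3 of 24 h.

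**Figure D5:**
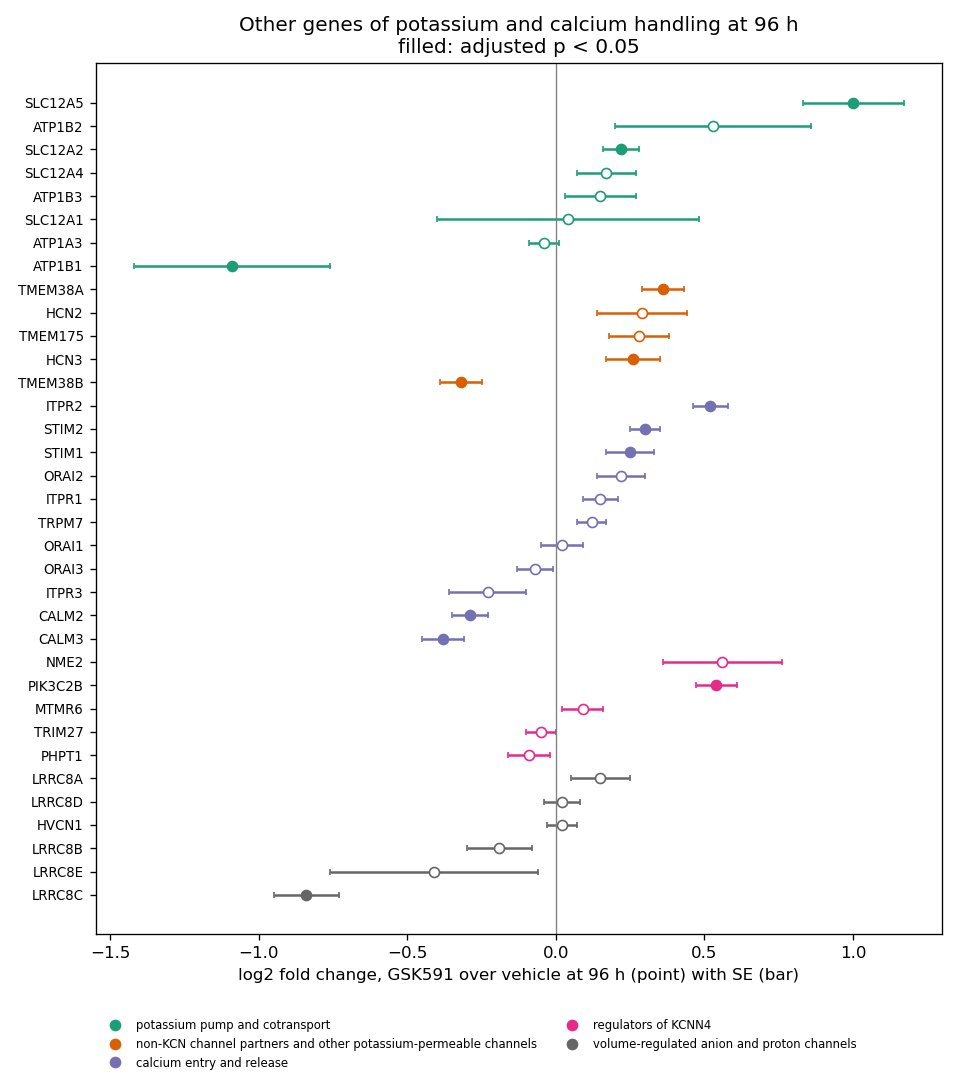
Log2 fold change of GSK591 over vehicle at 96 h (points) with SE (bars) for 35 tested genes of potassium and calcium handling, coloured by list, filled where the adjusted p was under 0.05. SLC12A5 reaches 1.0 and ITPR2 0.52, while ATP1B1 lies at -1.09 and LRRC8C at -0.84.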

How the data were processed

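Poly(A) RNA was made into Illumina TruSeq libraries, per the labels' protocols. The deposited tables, 1 for each time, hold the authors' raw read counts by gene symbol. STAR, HTSeq, edgeR and build hg19 (GRCh37) are named in the submitters' processing notes, but none of the sources used here gives versions, annotation or strand setting. Per the file headers, further tables the authors deposited hold log2 fold changes and average log2 CPM with p-values and their FDR, used here only where named.

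The 35 members, their classes, the 5 lists of other genes and the tests were chosen with earlier results of these data known. CPM printed here are scaled to a library's total count, with no TMM factor. Levels per kilobase use exon lengths of the GENCODE 29 basic set (GRCh38), another build than the counts', and are approximate. Each time was fitted alone on its 6 libraries with edgeR 4.0.16 (R 4.3.3), using filterByExpr, TMM factors and the two-sided quasi-likelihood test, with Benjamini-Hochberg adjustment over all genes tested. Called, rose and fell mean an adjusted p under 0.05. The SE is the log2 fold change divided by the square root of F. The difference between the times and vehicle at 96 h over vehicle at 24 h came from 1 fit of all 12 libraries with 4 group means. The fits were tested on simulated counts. DESeq2 1.42.0, other scalings, filters and left-out libraries were alternatives.

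Genes with values for every library are those called at 24 h, at 96 h or in the difference, the 3 highest in vehicle, KCNA3 and KCNN4. KCNAB3, KCNQ1OT1 and KCNJ2 were added after their values were seen. Some members and some genes of the lists are counted but not reported by name here or drawn in the figures. Depth was 547.9 M counts in 1 library and 48.5 to 64.4 M in the others (M, mega).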

Additional observations from a re-analysis of the deposited data

Results flagged for a closer look

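The effect of GSK591 differed between 96 h and 24 h for 10 members by a test of the difference itself (96 h minus 24 h, edgeR's quasi-likelihood test, all 12 libraries). The difference was 1.81 for KCNS1, 1.03 for KCNH2, 0.99 for KCNJ1, 0.87 for KCND1, 0.82 for KCNN3, 0.72 for KCNJ14, 0.63 for KCNK12, 0.60 for KCNMB4, 0.29 for KCNN4 and -0.66 for KCNC4. KCNS1 became a member through its GSK591 libraries of 96 h alone, so its value is not independent of the membership rule. For KCNN3 the log2 fold changes were of opposite sign, 0.65 at 96 h and -0.18 at 24 h, and the value at 24 h was not called. Under every alternative that gave a value, the calls for KCNS1, KCNJ1, KCND1, KCNN3, KCNJ14, KCNK12 and KCNMB4 held, while those for KCNH2, KCNN4 and KCNC4 were lost in some. Time in culture and the deposited table cannot be told apart in these values.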

How the results depend on the processing

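At 24 h, where 2 members were called, DESeq2 called 1, and 1 fit of all 12 libraries called 0 (0.212% of all genes), with 2 members at an unadjusted p under 0.05. Leaving out 1 library gave 1 to 3. At 96 h, where 13 were called, 1 fit of all 12 libraries called 20 (54.1% of all genes) and leaving out both libraries numbered 2 also called 20 (60.5%), with 10 to 18 when 1 library was left out. The difference between the times (10 called) ranged over 7 to 15 without 1 library, was 15 without both libraries numbered 2 (43.8% of all genes), and was 6 with a filter of at least 5 CPM (31.5%), which leaves fewer members tested. Vehicle at 96 h against 24 h (21 called) gave 18 to 26 without 1 library, 27 from the vehicle libraries alone (56.1% of all genes), 27 without both libraries numbered 2 (64.6%) and 11 with the 5 CPM filter (54.3%). Causes of the other shifts were not tested.

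The sign turned for genes near 0: with 1 library left out, KCNA3 ranged over -0.15 to 0.01 at 24 h (0.01 without vehicle replicate 3) and over -0.33 to 0.07 at 96 h (above 0, at 0.07, 0.05 and 0.02, when GSK591 replicate 1 or 3 or vehicle replicate 2 was left out). KCNAB2 at 96 h was -0.02 with no filter, just below 0 (-0.00) in 1 fit of all 12 libraries, and -0.03 without GSK591 replicate 2 and without both libraries numbered 2. A tally took the members called at 24 h, at 96 h or in the difference, each in that comparison. KCNA3, KCNN4, KCNAB2 and KCNMB2 were added at 24 h and at 96 h. Of their log2 fold changes under the alternatives, 451 kept direction and call, 44 lost the call, 6 gained it and 8 turned sign. Other members, and vehicle at 96 h over vehicle at 24 h, are outside this tally.

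Correlations of the deviations of same-numbered libraries were 0.51, 0.34 and 0.04 at 96 h and 0.05, 0.28 and 0.08 at 24 h. Libraries of unlike number at 96 h had -0.47 to 0.29, and there each GSK591 library correlated best with the vehicle library of its own number. At 24 h GSK591 replicate 1 did not (0.08 with vehicle replicate 3), nor did GSK591 replicate 3 (0.09 with vehicle replicate 1). The numbers were not taken to pair the libraries in the tests above. With the replicate number as a block, 5 members were called at 24 h, 16 at 96 h, 12 in the difference and 27 between the vehicle times, beside 21.3%, 46.6%, 31.6% and 59.0% of all genes tested in those fits. Depth limits the members of fewest counts. KCNK13, KCNRG, KCNK10, KCNN1, KCNH2 and KCNS1 had 7, 13, 16, 16, 17 and 18 counts in their lowest library.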
